A study of Ovis aries with 4 samples.

Results

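Levels of 4 genes of the contractile and actin apparatus were examined in the lactating sheep mammary gland: CNN1 (calponin 1, identifier ENSOARG00000018621), TPM1 (tropomyosin 1, ENSOARG00000020797), FHL1 (a protein made of LIM domains, ENSOARG00000011424) and GSN (gelsolin, ENSOARG00000005473). The genes were found by symbol, and all 4 were present among 20150 genes, of which 774 carried a symbol. Each library was made from the mammary gland of 1 of 4 lactating ewes with a droplet method that tags each transcript with its cell's barcode and with a molecular identifier (UMI), so that molecules are counted per cell. The study set peak lactation against late lactation, with 2 ewes each. Late lactation is abbreviated LL, and LH, which the labels do not spell out, was read as peak lactation because no other stage is named. The labels do not state age, breed, parity or health. All ewes were lactating, and the values are of dissociated cells, so a library need not hold the cell types in their proportions in the tissue.

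In smooth muscle and in the myoepithelial cells that surround the alveoli, filaments of actin slide along myosin. Calponin and tropomyosin both lie along the actin filament and regulate this sliding, and FHL1 is a LIM-domain protein found at muscle sarcomeres and focal contacts. Gelsolin severs and caps actin filaments and is made by many cell types. Oxytocin, acting on its receptor OXTR, makes the myoepithelium contract and eject milk, whereas endothelin acts through EDNRA, angiotensin II through AGTR1 and vasopressin through AVPR1A to constrict vascular smooth muscle.

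The 4 libraries held 5955 to 12733 barcodes, 28015149 to 65339993 UMIs in all and a median of 2693 to 3294 UMIs per barcode, and 37131 cells were kept. Cells were assigned to groups by UMIs of genes other than the 4 examined, and a cell that met 2 rules was put in no group. EDNRA/IGFBP7 cells had at least 1 UMI of EDNRA and of IGFBP7 (4295 cells: 255 and 1631 in LH replicates 1 and 2, 1267 and 1142 in LL replicates 1 and 2). Fibroblasts had at least 5 UMIs of DCN, the matrix proteoglycan decorin (3316 cells, of which LH replicate 2 gave 31). Luminal cells had at least 2 UMIs of the epithelial genes EPCAM and CLDN4 together (4800 cells), and endothelial cells at least 2 of SELP, SELE, KDR and RELN (1439 cells, of which LH replicate 1 gave 41). By the same kind of rule, only 20 cells were IDO1/IGFBP6 cells, so this group was taken as 1 cluster of 1135 cells (176, 159, 420 and 380 in the same order), in a clustering that did not use the 4 genes. The assignments left 17457 cells (47.0%) with no rule met. Any 2 libraries shared 15 to 39 cell barcodes.

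Checks of the groups were limited by the small number of named genes. Of 24 markers of vascular smooth muscle and pericytes, 3 had a symbol (EDNRA, AGTR1 and AVPR1A), and of 23 markers of myoepithelium 4 had one (OXTR, CNN1, SFN and EPCAM). ACTA2, MYH11, TAGLN, KRT5 and KRT14 carried no symbol, so EDNRA/IGFBP7 and IDO1/IGFBP6 cells are called by their leading genes and given no cell type. EDNRA chose the cells and checks nothing, which leaves AVPR1A and AGTR1. AVPR1A was at 12.1 to 48.6 CPM (counts of a gene per 1e+06 UMIs of all genes, for 1 cell group in 1 library) in EDNRA/IGFBP7 cells and at most 3.28 CPM in fibroblasts, luminal and endothelial cells. AGTR1 was at 0.865 to 22.2 CPM in EDNRA/IGFBP7 cells and higher in fibroblasts, at 31.2 to 51.1 CPM. PAEP (beta-lactoglobulin, a milk protein) was at 658 to 3137 CPM in luminal cells. T cells, which are not contractile, served as a measure of background from free RNA and misassigned cells.

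By their means over ewes, CNN1 and TPM1 were highest in EDNRA/IGFBP7 cells and FHL1 and GSN in fibroblasts; in LL replicate 1, CNN1 was higher in IDO1/IGFBP6 cells (100.1 CPM) than in EDNRA/IGFBP7 cells (71.7 CPM). CNN1 lay at 83.0 and 74.5 CPM in EDNRA/IGFBP7 cells of the LH ewes and at 71.7 and 64.0 CPM in those of the LL ewes, a mean of 73.3 ± 7.86 (SD, n = 4 ewes here and below). In fibroblasts CNN1 was at 3.06, 10.2, 4.45 and 4.84 CPM in LH replicates 1 and 2 and LL replicates 1 and 2. Fibroblasts thus lay below EDNRA/IGFBP7 cells in every ewe. The share of EDNRA/IGFBP7 cells with a CNN1 UMI was 23.5% (95% Clopper-Pearson interval 18.5 to 29.2), 13.6% (11.98 to 15.37), 14.8% (12.9 to 16.9) and 10.9% (9.19 to 12.9) in the same order. Such intervals cover counting error only. With every cell thinned to 1500 UMIs, the share was 9.30% ± 2.67.

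The remaining groups had CNN1 near the background. In luminal cells CNN1 was at 1.18 and 0.887 CPM for the LH ewes, against 4.60 and 0.700 CPM for the LL ewes. In endothelial cells it was at 0 and 4.94 CPM for the LH ewes, against 3.18 and 2.19 CPM for the LL ewes. The 0 was found in 41 cells of LH replicate 1 and is compatible with a level of up to 14.3 CPM, the level of 3 UMIs. After thinning, 0.369% of fibroblasts, 0.357% of luminal and 0.441% of endothelial cells had a CNN1 UMI, against 0.233% of T cells and 0.401% of macrophages. Median depth was 2948 UMIs in T cells and 3033, 10272 and 3530 UMIs in fibroblasts, luminal and endothelial cells. These shares are read as background. By level, T cells had CNN1 at 0.488 and 0 CPM for the LH ewes, against 2.04 and 3.13 CPM for the LL ewes. Fibroblasts lay above T cells in each ewe, on 3 UMIs in LH replicate 1 and 1 in LH replicate 2. Macrophages had 2.58 and 3.45 CPM for the LH ewes, against 4.64 and 6.22 CPM for the LL ewes, where they lay above the fibroblasts. The higher luminal level of LL replicate 1 was not seen when luminal cells were taken as clusters, where the 4 ewes had a mean of 0.936 CPM with a highest value of 1.29. Of the gated luminal cells, 102 lay in the IDO1/IGFBP6 cluster.

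In IDO1/IGFBP6 cells, CNN1 was at 11.7 and 46.8 CPM for the LH ewes, against 100.1 and 31.1 CPM for the LL ewes. LL replicate 1 exceeded every EDNRA/IGFBP7 library, and LH replicate 1 lay below all of them, so the ewes spread over a far wider range (47.4 ± 38.0 CPM) than in EDNRA/IGFBP7 cells. IDO1/IGFBP6 cells of LH replicate 1 were also the deepest, with a median of 9462 UMIs against 3440 to 3815 in the other ewes. After thinning, a CNN1 UMI was found in 1.71%, 4.44%, 13.5% and 6.29% of cells. These shares rest on 3, 6, 52 and 22 cells, and T cells of the same ewes had 0.0659%, 0%, 0.221% and 0.645%. Of 169 cells with at least 3 CNN1 UMIs, 136 were among the 10526 cells of EDNRA/IGFBP7 clusters and 30 among the 1135 of the IDO1/IGFBP6 cluster. These counts are unthinned and pooled over ewes, so rates per cell are not compared. Median depth was 3999 UMIs in the IDO1/IGFBP6 cluster and 1070 to 3871.5 in the EDNRA/IGFBP7 clusters. LL replicate 1 gave 210 of the 320 CNN1 UMIs of the IDO1/IGFBP6 cluster.

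TPM1, by contrast, was found in every group. It was at 1541 and 2315 CPM in EDNRA/IGFBP7 cells of the LH ewes and at 1258 and 1196 CPM in those of the LL ewes, and 89.4%, 85.7%, 78.3% and 71.5% of these cells had a UMI. In IDO1/IGFBP6 cells it was at 605 and 1059 CPM for the LH ewes, against 683 and 547 CPM for the LL ewes. The means were 269 ± 108 CPM in fibroblasts, 245 ± 121 CPM in luminal cells and 223 ± 221 CPM in endothelial cells, which do not differ beyond their spread. T cells were at 33.1 ± 28.5 CPM, with LH replicate 2 highest at 74.5. LH replicate 2 was also the highest library in EDNRA/IGFBP7, IDO1/IGFBP6 and endothelial cells, fibroblasts and macrophages.

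FHL1 had a different order. Fibroblasts held 68.4 and 81.8 CPM for the LH ewes, against 99.6 and 68.3 CPM for the LL ewes, and a UMI was found in 9.72% ± 3.74 of cells thinned to 1500 UMIs. Endothelial cells followed at 22.6 ± 10.5 CPM and EDNRA/IGFBP7 cells at 21.8 ± 13.6 CPM, neighbours that do not differ beyond their spread. Luminal cells (1.41 ± 1.10 CPM), IDO1/IGFBP6 cells (1.99 ± 1.71 CPM) and T cells (1.39 ± 0.892 CPM) were at a common low level. In IDO1/IGFBP6 cells that level rested on 10 cells with a UMI of 1135.

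GSN was at 10636 and 7962 CPM in fibroblasts of the LH ewes and at 9295 and 9480 CPM in those of the LL ewes, with a UMI in 99.4% ± 0.613 of cells after thinning. It was at 986 ± 263 CPM in EDNRA/IGFBP7 cells, 846 ± 210 CPM in IDO1/IGFBP6 cells, 503 ± 292 CPM in luminal cells and 423 ± 184 CPM in endothelial cells. The EDNRA/IGFBP7 and IDO1/IGFBP6 values overlapped among ewes, as did the luminal and endothelial values. T cells were lowest at 72.0 ± 26.1 CPM. Gated fibroblasts held 50.2% of all GSN UMIs and 42.7% of all FHL1 UMIs, from 8.93% of the kept cells.

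**Figure D1:**
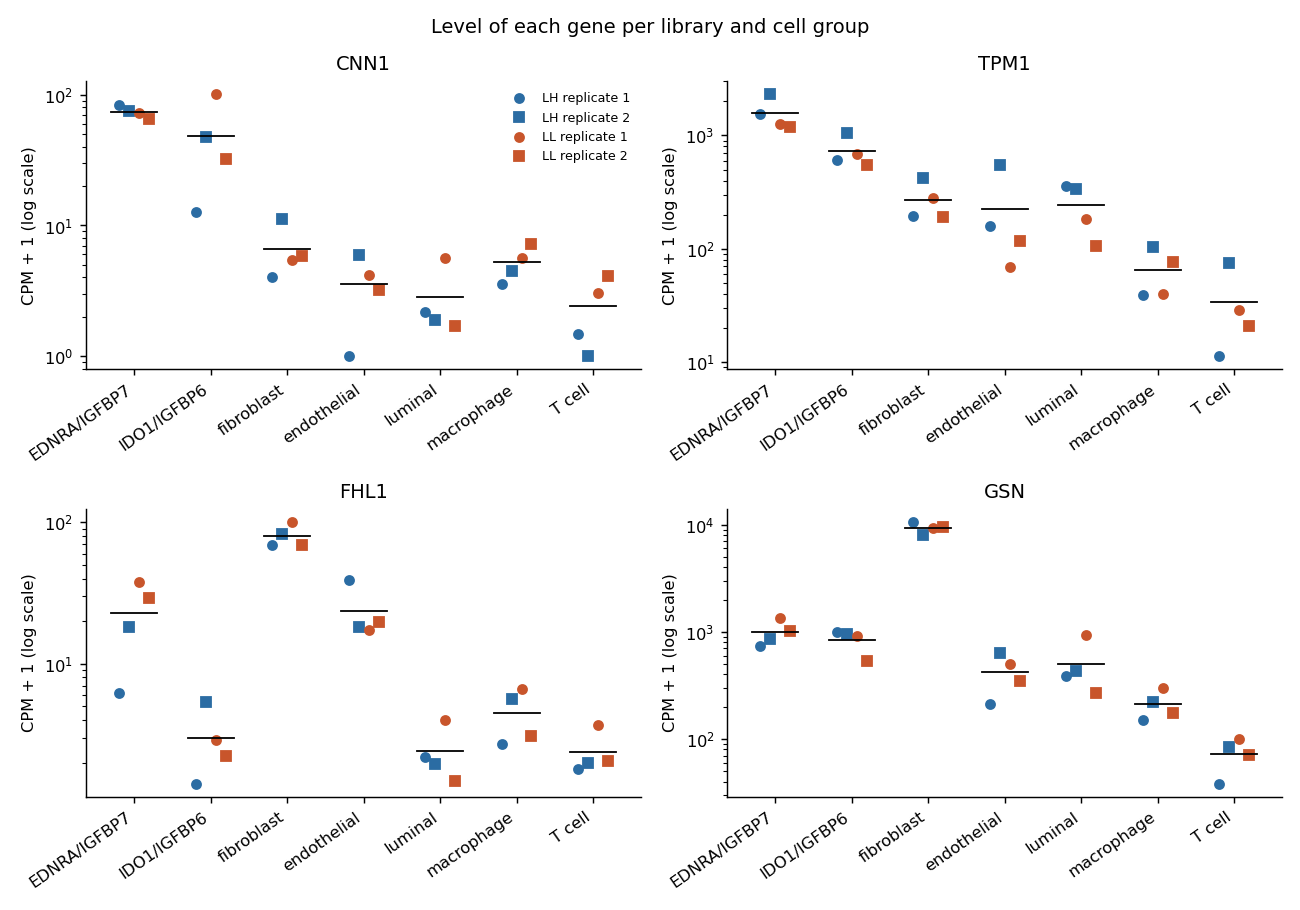
Level of each gene per library and cell group, as CPM + 1 on a log axis; each point is 1 library (blue LH, orange LL), the line is the arithmetic mean of 4 libraries, and IDO1/IGFBP6 cells are a cluster whereas the other groups are gated. CNN1 and TPM1 have their highest means in EDNRA/IGFBP7 cells (73.3 and 1578 CPM; IDO1/IGFBP6 cells of LL replicate 1 lie higher for CNN1), and FHL1 and GSN in fibroblasts (79.5 and 9343 CPM).

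The differences between cell groups were tested on UMIs summed per library and group, with the ewe as a block, by the quasi-likelihood test of edgeR over 11857 genes. Against fibroblasts, where 34.6% of all genes passed an adjusted p of 0.05 (18.4% higher and 16.2% lower in EDNRA/IGFBP7 cells), all 4 genes passed. CNN1 was higher in EDNRA/IGFBP7 cells by 4.30 ± 0.46 on the log2 scale (SE; edgeR adjusted p = 1.046e-05) and TPM1 by 2.69 ± 0.34 (adjusted p = 3.750e-05). FHL1 and GSN lay the other way, with log2 differences of -1.67 ± 0.40 (edgeR adjusted p = 0.00533) and -3.16 ± 0.33 (adjusted p = 7.735e-06). Each of these directions was seen in 4 of 4 ewes.

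Against luminal cells, where 49.4% of genes passed (24% higher and 25.4% lower), the 4 genes were all higher in EDNRA/IGFBP7 cells. The log2 differences were 5.42 ± 0.41 for CNN1 (edgeR adjusted p = 3.230e-07), 2.61 ± 0.33 for TPM1 (2.283e-05), 4.00 ± 0.45 for FHL1 (8.095e-06) and 0.92 ± 0.30 for GSN (0.0223). GSN was the least secure: without LL replicate 2 its difference was 0.67 with an edgeR adjusted p of 0.187. Without the ewe as a block it was 0.84 (edgeR adjusted p = 0.0603).

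Against endothelial cells, where 29.1% of genes passed (14.9% higher and 14.2% lower), CNN1 was higher by 4.87 ± 0.53 (edgeR adjusted p = 2.013e-05), TPM1 by 3.2 ± 0.35 (2.191e-05) and GSN by 1.28 ± 0.31 (0.00664). Without LL replicate 2, GSN was higher by 1.20 with an edgeR adjusted p of 0.0526. FHL1 did not pass, with a difference of 0.30 ± 0.46 (edgeR adjusted p = 0.696), which turned to -0.23 without LL replicate 1. These comparisons share the EDNRA/IGFBP7 libraries. Tests against IDO1/IGFBP6 cells were not run, since that group came from a clustering on the other genes of the same cells.

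Other named genes of the contractile apparatus were few. Of 49 listed smooth muscle contractile genes 5 had a symbol: CNN1, TPM1, FHL1, CAV1 (caveolin 1, the coat protein of caveolae) and RHOA (a small GTPase that controls actin stress fibres). Against fibroblasts, 3 of these 5 were higher in EDNRA/IGFBP7 cells and 1 was lower, with a list median of 2.69 against 0.01 over all genes. CAV1 was higher by 3.29 ± 0.53 (edgeR adjusted p = 3.269e-04), and RHOA did not pass (0.05 ± 0.17, adjusted p = 0.976). Against luminal cells 4 of the 5 were higher and 0 lower, with a list median of 3.72 against -0.02 over all genes. Against endothelial cells only 2, CNN1 and TPM1, were higher and 0 lower, with a list median of 0.30 against 0.03. There CAV1 (-0.60 ± 0.46, edgeR adjusted p = 0.374) and RHOA (-0.38 ± 0.16, adjusted p = 0.108) did not pass. Of 55 listed actin regulators, GSN, CFL1 (cofilin 1, which severs actin filaments) and ACTB (beta-actin) had a symbol. ACTB was higher than in fibroblasts by 0.90 ± 0.20 (edgeR adjusted p = 0.00288) and CFL1 did not pass (0.40 ± 0.16, adjusted p = 0.0659). Among receptors of contractile agonists AVPR1A was higher in EDNRA/IGFBP7 cells against each of the 3 groups, by 4.51 ± 0.42 on the log2 scale against fibroblasts (edgeR adjusted p = 3.705e-06). EDNRA itself had chosen the cells and is no result.

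The EDNRA/IGFBP7 cells were not uniform in CNN1 and TPM1. Clustering without the 4 genes placed 10526 cells in 6 clusters with EDNRA, or with IGFBP7 and TIMP3, and 94.3% of the gated EDNRA/IGFBP7 cells lay in them. Cluster 1 (3026 cells) had CNN1 at 164 ± 14.1 CPM and TPM1 at 2800 ± 677 CPM, and cluster 18 (680 cells) had 69.1 ± 19.6 and 1861 ± 370 CPM. Cluster 7 (2036 cells), led by FABP4 (a fatty acid carrier), AVPR1A and AGTR1, had CNN1 at 0.645 ± 0.904 CPM and TPM1 at 221 ± 61.7 CPM. CNN1 in cluster 7 was thus as low as in T cells, although EDNRA and IGFBP7 were at 145 and 2392 CPM in its pooled cells. Because clusters are drawn from the same cells, these differences are described and were not tested.

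GSN ran opposite to CNN1 and TPM1 among these clusters. It was at 606 ± 88.0 CPM in cluster 1 and 314 ± 90.7 CPM in cluster 18, but at 1119 ± 177 CPM in cluster 0 (3888 cells) and 1590 ± 285 CPM in cluster 7. Cluster 15 (834 cells, led by FABP4 and FST) had the most GSN, at 2282 ± 242 CPM over the 3 ewes with at least 20 cells, and 603 of its cells came from LL replicate 1. FHL1 in cluster 15 was at 62.6 ± 5.02 CPM over the same 3 ewes, close to its level in fibroblasts, against 22.3 ± 9.11 CPM in cluster 1. Over pooled cells DCN was at 97.7 CPM in cluster 15 and 43.9 CPM in cluster 1, against 17626 and 11471 CPM in the clusters taken as fibroblasts.

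**Figure D2:**
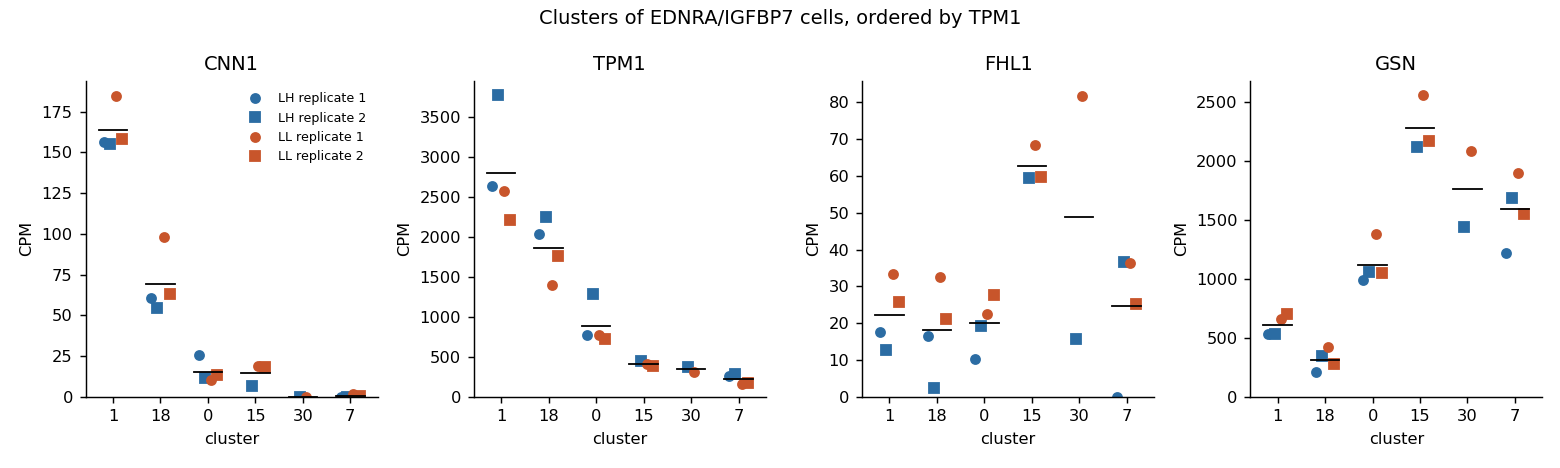
CPM of the 4 genes in the clusters of EDNRA/IGFBP7 cells, ordered by TPM1; points are libraries with at least 20 cells in the cluster and lines are their means. CNN1 and TPM1 are highest in clusters 1 and 18, whereas GSN is lowest there and highest in cluster 15.

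Clusters 1 and 18, the only ones with at least 50 CPM of CNN1, are called the CNN1-TPM1 clusters; this threshold used CNN1, so CNN1 is given as a description. Across the ewes they had CNN1 at 138, 144, 180 and 150 CPM, and the other EDNRA/IGFBP7 clusters had 19.1, 8.01, 12.2 and 9.94 CPM. GSN was at 574 ± 97.6 CPM in them and at 1397 ± 368 CPM in the others. AGTR1 was at 0.650 ± 0.801 CPM against 34.3 ± 13.9 CPM in the others, and AVPR1A at 17.1 ± 11.8 against 64.6 ± 21.1 CPM. For AGTR1, AVPR1A and GSN the ranges of the 4 ewes did not overlap, but the share of all genes that did likewise was not counted. The clustering left out GSN but not AGTR1 or AVPR1A, so the separation of these receptors is a description only. ACTB lay the same way as CNN1, at 852 ± 193 against 406 ± 77.5 CPM, as did CRYAB (alpha-B crystallin, a chaperone of the cytoskeleton) at 727 ± 115 against 309 ± 45.9 CPM. Over pooled cells this held in cluster 1, with 935 CPM of ACTB and 806 CPM of CRYAB. It did not hold in cluster 18, with 162 and 148 CPM and a median of 1070 UMIs per cell. Clusters 0 and 7 had 489 and 312 CPM of ACTB, and 436 and 90.8 CPM of CRYAB.

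The gated EDNRA/IGFBP7 cells were also split by detection of CNN1, after thinning to 1500 UMIs to equalise depth. Most of these cells lay in the clusters above, and 825 of their 958 CNN1 UMIs were in the CNN1-TPM1 clusters. This is thus another view of the same cells and no separate support. A TPM1 UMI was found in 93.9%, 98.3%, 96.0% and 95.9% of cells with a CNN1 UMI, and in 72.7%, 79.7%, 63.8% and 63.9% of cells without one, in LH replicates 1 and 2 and LL replicates 1 and 2. The mean of TPM1 was 1.51, 1.97, 2.50 and 2.38 times as high in the cells with CNN1. TPM1 thus went with CNN1 in 4 of 4 ewes, but the share of all genes that did likewise was not counted. The mean of GSN in cells with CNN1 was 0.973, 0.507, 0.598 and 0.699 times that in cells without. GSN was thus lower beside CNN1 in LH replicate 2 and both LL ewes, and nearly level in LH replicate 1, which had 33 cells with CNN1.

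AGTR1 was found in no cell with a CNN1 UMI in any ewe (33, 118, 100 and 73 cells), against 0.463%, 2.43%, 3.47% and 2.61% of cells without. At these shares few or no such cells would be counted among the cells with CNN1, so absence cannot be stated for a single ewe. AVPR1A was found in 0%, 0%, 1.00% and 1.37% of cells with CNN1 and in 2.31%, 6.46%, 5.29% and 4.57% of cells without. FHL1 showed no common direction, with 0%, 3.39%, 6.0% and 0% against 1.39%, 2.20%, 5.11% and 4.68%. Cells of 1 library are not replicates, and these shares were not tested.

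**Figure D3:**
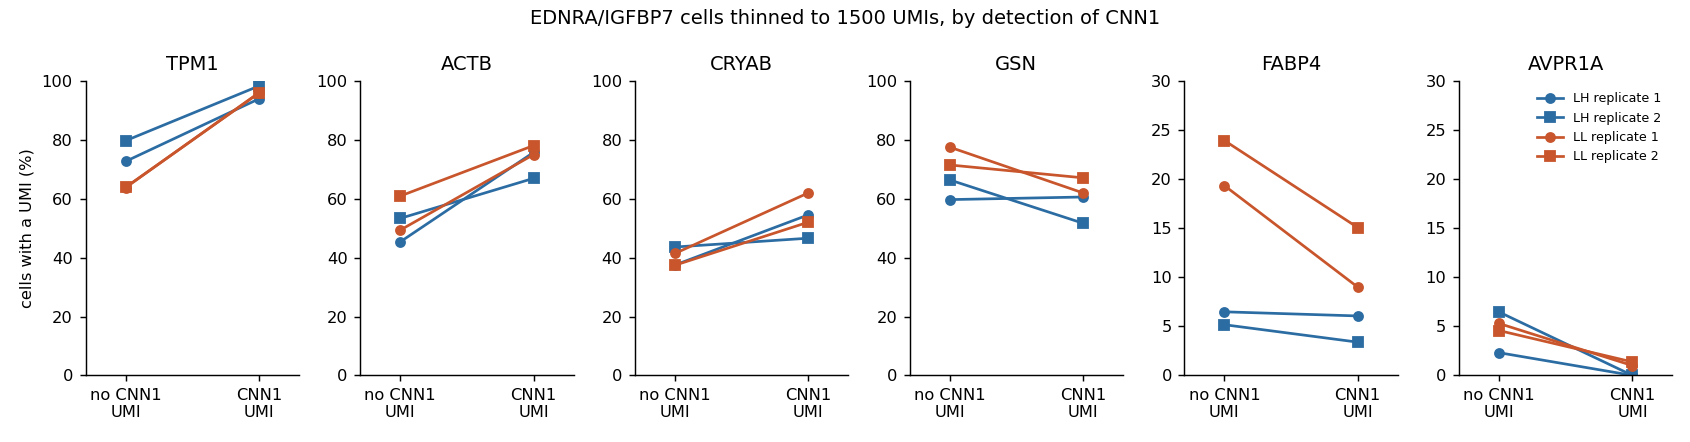
Share of gated EDNRA/IGFBP7 cells with a UMI of each gene, among cells without and with a CNN1 UMI, after thinning to 1500 UMIs; each line is 1 library, and FABP4 and AVPR1A have an axis to 30%. TPM1 and ACTB are found more often beside CNN1 in all 4 ewes, and AVPR1A less often.

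Whether CNN1 lay in myoepithelium or in vascular smooth muscle was examined with the receptors. OXTR was found in 63 cells, of which 55 were in the IDO1/IGFBP6 cluster and 2 in the EDNRA/IGFBP7 clusters. Its level in IDO1/IGFBP6 cells was 0.417 and 38.0 CPM for the LH ewes, against 3.34 and 19.3 CPM for the LL ewes. In gated EDNRA/IGFBP7 cells OXTR was found in 6 of 4295, and all 6 lay in the IDO1/IGFBP6 cluster. In gated fibroblasts and endothelial cells it was found in none, at 0 of 3316 and 0 of 1439 cells. The single highest CNN1 count of the 5 cell groups, 11 unthinned UMIs, was in 1 cell of this cluster from LL replicate 1. EDNRA/IGFBP7 clusters had at most 10. Across ewes the levels of CNN1 and OXTR in the cluster did not go together. LL replicate 1 had CNN1 at 100.1 CPM and OXTR at 3.34 CPM. LH replicate 2 had 46.8 and 38.0 CPM, and LL replicate 2 had 31.1 and 19.3 CPM.

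Of the 63 cells with OXTR, 11 had a CNN1 UMI (17.5%, 95% Clopper-Pearson interval 9.05 to 29.1) and 57 had TPM1 (90.5%, 80.4 to 96.4). By ewe, CNN1 was found in 0%, 31.8%, 25.0% and 6.25% of 1, 22, 8 and 32 cells with OXTR. In all cells of the IDO1/IGFBP6 cluster, unthinned, the shares were 10.8%, 14.5%, 28.3% and 9.74%. Cells with OXTR thus had the higher CNN1 share in LH replicate 2 only. TPM1 was found in 91.5%, 84.9%, 81.0% and 72.4% of that cluster. Among the 63 cells, GSN was found in 51 and FHL1 in 0. EDNRA was found in 14 (22.2%) and EPCAM in 23 (36.5%), whereas AVPR1A and AGTR1 were found in none. The IDO1/IGFBP6 cluster as a whole had EPCAM at 153, 215, 121 and 73.5 CPM, below luminal clusters (442 to 522 CPM) and above the EDNRA/IGFBP7 clusters (at most 13.8 CPM). It was led by MMP7, IDO1, ITGB6 and MET, and it had SFN at 1.91 to 19.0 CPM. EDNRA was at 40.1 to 262 CPM in it, so that 112 of its cells met the rule for EDNRA/IGFBP7 cells and gave 27 of the 958 CNN1 UMIs of that gated group.

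CNN1 and TPM1 were thus found in a set of clusters with EDNRA and almost no OXTR or EPCAM. They were also found in another set, the IDO1/IGFBP6 cluster, with IDO1, ITGB6, EPCAM and most of the OXTR. These are levels of clusters, and whether CNN1 of the latter lay in its cells with IDO1, ITGB6 or EPCAM was not tested. LL replicate 1 gave 210 of the 320 CNN1 UMIs of that cluster, but 6 of its 55 cells with OXTR. EDNRA and AVPR1A are receptors of vascular smooth muscle and OXTR is that of myoepithelium, but with 3 and 4 named markers neither set can be given a cell type from these data. FHL1 was at 21.8 ± 13.6 CPM in gated EDNRA/IGFBP7 cells and 1.99 ± 1.71 CPM in IDO1/IGFBP6 cells, and in each ewe it was the higher in EDNRA/IGFBP7 cells. In LH replicate 1 this rested on 6 UMIs against 1. The share of all genes that did likewise was not counted, and 112 cells belonged to both groups. Nor was the level particular to EDNRA/IGFBP7 cells, since gated endothelial cells had FHL1 at 16.3 to 38.2 CPM.

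**Figure D4:**
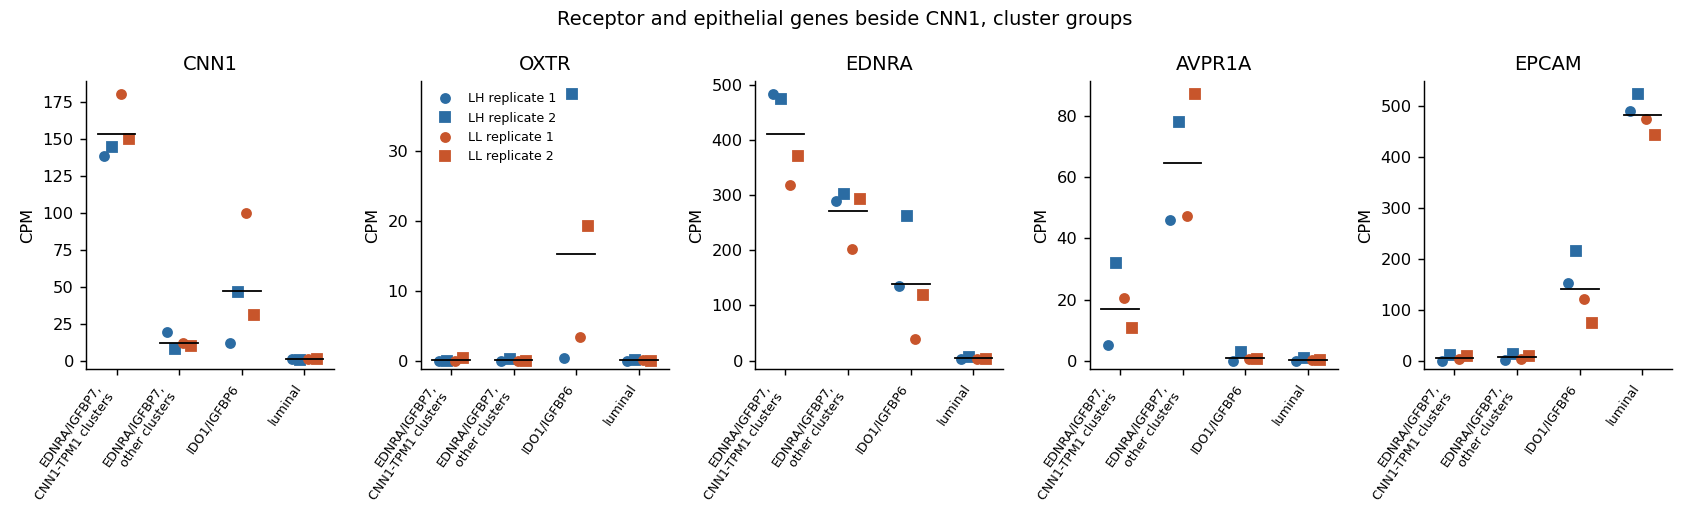
CPM of CNN1, 3 receptors and EPCAM in the CNN1-TPM1 clusters, the other EDNRA/IGFBP7 clusters, the IDO1/IGFBP6 cluster and luminal clusters; points are libraries and lines their means. OXTR is detected mainly in the IDO1/IGFBP6 cluster (0.417 to 38.0 CPM), where CNN1 spans 11.7 to 100.1 CPM.

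Genes with a symbol were ranked by the likeness of their level to each of the 4 genes over 16 sums (4 gated groups in 4 ewes), among 512 named genes, by Pearson's r of log2 CPM. CNN1 was nearest to EDNRA (0.92), which had chosen the cells, SLC25A4 (0.87), REM1 (0.86), AVPR1A (0.86) and PON2 (0.85). TPM1 was nearest to REM1 (0.93), EDNRA (0.89), PON2 (0.85), CNN1 (0.82) and SLC25A4 (0.82). FHL1 was nearest to BMP4 (0.92), TIMP2 (0.90), TIMP3 (0.88), HEXA (0.87) and GNG11 (0.86). GSN was nearest to QPCT (0.95), SERPINF1 (0.94), MMP2 (0.92), CD81 (0.91) and SFRP2 (0.90). The sums of 1 ewe share a library, so these values are descriptions.

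Late lactation was then compared with peak lactation within each group. None of the 4 genes passed an edgeR adjusted p of 0.05 in any of the 5 groups, and few genes did at all: 0.0285% of 10536 genes in EDNRA/IGFBP7 cells, 0.0102% of 9793 in fibroblasts, 0.0153% of 13056 in luminal cells and 0.041% of 9762 in IDO1/IGFBP6 cells. In endothelial cells 0% of 6942 genes passed by edgeR, with 326 at an unadjusted p under 0.05 and 15 past the adjusted threshold by DESeq2. With 2 ewes per stage, differences of the size seen for the 4 genes were not separable from the spread between ewes.

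CNN1 in EDNRA/IGFBP7 cells had the values given above, with both LL ewes just below both LH ewes, and a log2 difference of -0.18 ± 0.19 (edgeR adjusted p = 0.893). On the TMM-scaled values of the fit, LL replicate 1 (74.1 CPM) lay above LH replicate 2 (73.3 CPM), so the stages overlapped. TPM1 in these cells (1541 and 2315 CPM in LH; 1258 and 1196 CPM in LL) did not overlap between stages on either scale, with -0.62 ± 0.23 (edgeR adjusted p = 0.720). Both LL ewes were below both LH ewes for 18.8% of all genes, counted on TMM-scaled values here and below. Without LH replicate 1 the difference of TPM1 was -0.87 with an edgeR adjusted p of 0.0203; here and below, leaving out a ewe leaves 1 library in its stage, which is assumed to vary like the other 2.

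FHL1 in EDNRA/IGFBP7 cells was at 5.19 and 17.3 CPM for the LH ewes, against 36.5 and 28.1 CPM for the LL ewes, and the stages did not overlap, as for 19.4% of all genes in this direction. Its log2 difference was 1.39 ± 0.48 (edgeR adjusted p = 0.720), resting on 6 UMIs in LH replicate 1. It was 2.66 without LH replicate 2 (edgeR adjusted p = 0.0346) and 1.41 with no filter on low counts (adjusted p = 0.0343). GSN was at 731 and 855 CPM for the LH ewes, against 1339 and 1017 CPM for the LL ewes, with no overlap and a difference of 0.60 ± 0.22 (edgeR adjusted p = 0.720).

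The makeup of the EDNRA/IGFBP7 cells also differed between libraries. The CNN1-TPM1 clusters held 54.9% and 40.5% of the gated cells in LH and 34.1% and 32.4% in LL, and cluster 15, which had the most GSN and FHL1, held 5 and 38 cells of the LH ewes, against 603 and 188 of the LL ewes. Within the CNN1-TPM1 clusters alone the edgeR log2 difference of LL against LH was 0.27 for CNN1 (adjusted p = 0.793) and -0.34 for TPM1 (0.761), against -0.35 and -0.80 over all EDNRA/IGFBP7 clusters. Outside them CNN1 had 0.13 (edgeR adjusted p = 0.974). FHL1 and GSN kept their direction within the CNN1-TPM1 clusters, with edgeR log2 differences of 1.17 (adjusted p = 0.487) and 0.46 (0.605). In cluster 1 alone FHL1 was at 17.5 and 12.6 CPM for the LH ewes, against 33.3 and 25.6 CPM for the LL ewes, and GSN at 529 and 534 against 658 and 703 CPM. Neither overlapped between stages, but the share of all genes that did likewise in this cluster was not counted. The sign of CNN1 thus differed between the whole and its parts, but CNN1 itself had set the split and none of its values passed the threshold. The part of makeup in the stage differences was not tested. The summed level of the 4 named fibroblast markers in gated EDNRA/IGFBP7 cells was 7.78 and 4.59 CPM for the LH ewes, against 95.3 and 42.5 CPM for the LL ewes, with SERPINF1 at 0 in both LH ewes. The part of these markers in the values of FHL1 and GSN was not tested.

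In luminal cells TPM1 was at 357 and 333 CPM for the LH ewes, against 182 and 105 CPM for the LL ewes, so the stages did not overlap, as for 20.6% of genes in this direction and 20.4% in the other. The log2 difference of -1.25 ± 0.25 had an edgeR adjusted p of 0.371 and a DESeq2 adjusted p of 0.00357. Luminal cells of the stages lay mainly in different clusters: cluster 3, led by SPP1, held 181 and 2008 cells of the LH ewes and 96 and 436 of the LL ewes, and cluster 4, with LTF and PAEP foremost, held 25 and 36 against 564 and 1875. Within cluster 3 TPM1 was at 367 and 370 CPM for the LH ewes, against 226 and 117 CPM for the LL ewes. Within cluster 4 it was at 387 and 419 against 231 and 114 CPM, so the stages did not overlap in either cluster. The share of all genes without overlap inside these clusters was not counted. GSN was at 383 and 432 CPM for the LH ewes, against 928 and 268 CPM for the LL ewes and overlapped. CNN1 and FHL1 were at background level and overlapped too.

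In endothelial cells TPM1 was at 158 and 551 CPM for the LH ewes, against 68.1 and 116 CPM for the LL ewes, a difference of -1.88 ± 0.63 (edgeR adjusted p = 0.938), and -0.74 without LH replicate 2. The stages did not overlap, as for 16.4% of genes in this direction and 17.9% in the other. The libraries drew on different endothelial clusters: cluster 13, led by RELN, held 56 cells of LH replicate 1 and 17 of LH replicate 2, cluster 23 held 1 and 84, and cluster 16, led by SELP, held 735 cells of LL replicate 1. Within cluster 13 TPM1 was nearly level, at 118 CPM in LH replicate 1 and at 113 and 108 CPM in the LL ewes. Within cluster 23 it was at 348 CPM in LH replicate 2 and at 132 and 127 CPM in the LL ewes, and cluster 16 of LL replicate 1 had 40.5 CPM. LH replicate 2 also had the highest summed level of the 8 named luminal markers in its endothelial cells, 2588 CPM against 253 in LH replicate 1 and 1048 and 1081 in LL. Of these markers CSN2 and CSN3 were at 0 in 3 of the 4 ewes. ABCG2, also among these markers, was a leading gene of endothelial clusters 16 and 23, so the sum does not measure luminal RNA alone. The part of luminal RNA in the TPM1 value was not tested. FHL1 (-0.49 ± 0.54, edgeR adjusted p = 0.960) and GSN (0.12 ± 0.57, adjusted p = 0.999) overlapped between stages, and CNN1 was below the filter on low counts.

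In fibroblasts the stages overlapped for all 4 genes, with log2 differences of 0.15 ± 0.87 for CNN1, -0.27 ± 0.36 for TPM1, 0.18 ± 0.30 for FHL1 and -0.02 ± 0.38 for GSN (edgeR adjusted p from 0.994 to 1.000). LH replicate 2 contributed 31 fibroblasts. In IDO1/IGFBP6 cells CNN1 overlapped and had a difference of 1.38 ± 0.72 (edgeR adjusted p = 0.592), TPM1 -0.43 ± 0.32 (0.750) and GSN -0.45 ± 0.35 (0.762), and FHL1 was below the filter. Single ewes set the size of these differences: leaving out each in turn gave 0.21 to 2.39 for CNN1, -0.70 to -0.09 for TPM1 and -0.92 to -0.07 for GSN. GSN in LL, at 910 and 534 CPM, was below both LH ewes, at 986 and 954 CPM, but overlapped with them on TMM-scaled values.

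**Figure D5:**
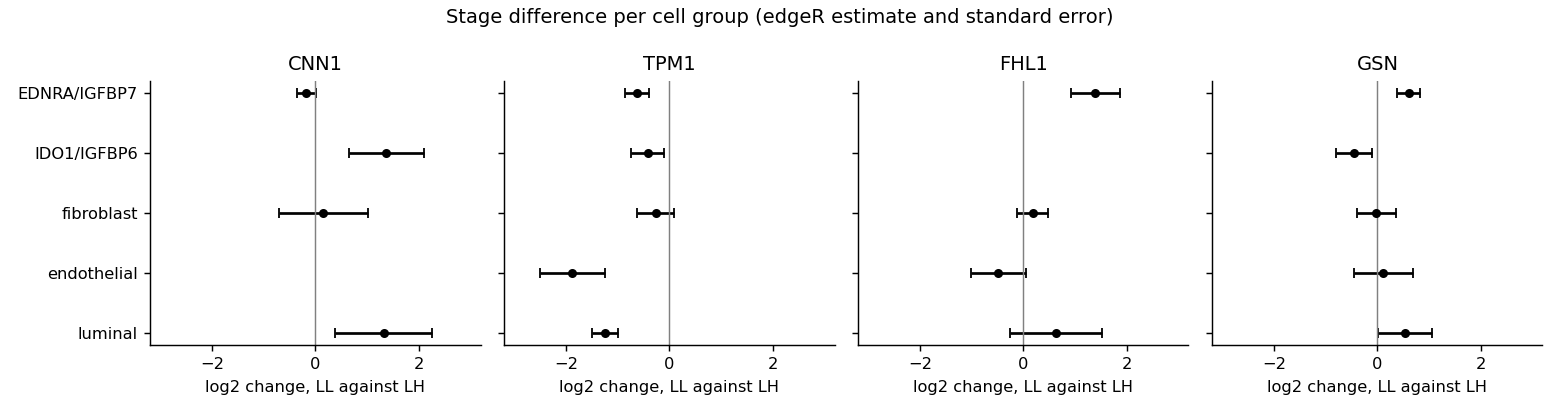
Log2 difference of LL against LH for each gene and cell group, as edgeR estimates with standard errors (2 ewes per stage); a missing point means that the gene was below the filter on low counts. TPM1 lies below 0 in all 5 groups, and no point passed an adjusted p of 0.05. The groups come from the same ewes and are not separate observations, and the sign of TPM1 in fibroblasts turned with stricter rules.

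Whether the stage difference of EDNRA/IGFBP7 cells departed from that of another group was tested as an interaction. Of 11857 genes, 0% passed against fibroblasts, luminal or endothelial cells by edgeR, with 413, 475 and 828 at an unadjusted p under 0.05 and 1, 11 and 30 past the adjusted threshold by DESeq2. Among the 4 genes the edgeR adjusted p was lowest for FHL1 against endothelial cells (0.704, log2 difference of the changes 1.80 ± 0.90).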

How the data were processed

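The authors deposited raw UMI counts for each gene and cell barcode. The submitters' processing notes name Cell Ranger 5.0.1, STAR and Seurat 3.2.0, whereas the version is 7.2.0 per the file headers. Build and gene annotation: not given in the sources used here. Since 0 gene identifiers matched the supplied reference table, neither coordinates nor sequences are given.

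The 4 genes, the cell groups, lists and tests were chosen with earlier results of these data known. Barcodes with over 20% mitochondrial UMIs (13 genes) and doublet calls were left out (Scrublet-type score, 3.71% to 4.92% of a library; the caller marked 0 in LH replicate 1, where the mean threshold of the other libraries, 0.18, was used). Thinning was hypergeometric. Since under 20 IDO1/IGFBP6 cells per library met the rule, a Leiden cluster stood for that group, and the fit across cell groups held 16 sums of 4 groups. Clusters used 2000 variable genes without the 4 genes and without milk protein, mitochondrial and ribosomal protein genes, 30 principal components, the 20 nearest neighbours and resolution 1 (leidenalg 0.10.2, igraph 0.11.9, scanpy 1.11.5), and were named by levels set after the data were seen: DCN of at least 10000 CPM for fibroblasts, EPCAM of 300 for luminal, KDR of 250 for endothelial, IDO1 of 100 with IGFBP6 of 1000, and EDNRA of 300 or IGFBP7 of 1000 with TIMP3 of 2000 (and CD3E, a T cell gene, under 100).

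UMIs were summed per library and group of at least 20 cells. LL was compared with LH, and groups with each other (ewe as a block, all 4 gated groups in 1 fit), by edgeR 4.0.16 in R 4.3.3 (TMM, filterByExpr with a minimum count of 10, Benjamini-Hochberg adjusted p under 0.05); DESeq2 1.42.0 was an alternative. CPM values in the text use unscaled totals. The fits were tested on simulated counts with known changes. Replicate numbers were not taken to pair ewes, since deviations of same-numbered libraries correlated at -0.164 to 0.141. Each ewe gave 1 library, so p-values of LL against LH measure the spread between ewes. With the ewe as a block, p-values between cell groups and of the interaction measure how differences between groups vary from ewe to ewe. The 4 genes were named in every group, list genes where they passed the threshold or belonged to a short list, and the 5 named genes nearest to each by Pearson's r of log2 CPM (prior count 2).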

Additional observations from a re-analysis of the deposited data

How the results depend on the processing

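The differences between cell groups were the most stable: 103 of 104 values of the 4 genes kept their direction and side of the threshold under alternatives other than leaving out an ewe, the exception being GSN against luminal cells with no replicate block (0.84). Leaving out each ewe gave 0.67 to 1.07 for GSN against luminal cells, 1.16 to 1.55 for GSN and -0.23 to 0.76 for FHL1 against endothelial cells, and 2029 to 3239 and 2482 to 3728 genes past the threshold against endothelial cells and fibroblasts.

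Counts of genes past the threshold between LL and LH moved most. DESeq2 called 38 in EDNRA/IGFBP7 cells, 7 in fibroblasts, 234 in luminal, 15 in endothelial and 105 in IDO1/IGFBP6 cells, and 1, 11 and 30 for the interaction with fibroblasts, luminal and endothelial cells. With no filter on low counts the 5 counts were 237, 135, 21, 311 and 566, and FHL1 in EDNRA/IGFBP7 (1.41), TPM1 in endothelial (-1.80) and CNN1 in IDO1/IGFBP6 cells (1.42) passed. TPM1 in luminal cells passed with DESeq2 (-1.24). Leaving out each ewe gave counts of 1 to 312, 3 to 54, 0 to 116, 0 to 4 and 0 to 427. In EDNRA/IGFBP7 cells stricter rules gave 1, clusters 6, and clusters outside the CNN1-TPM1 clusters 8.

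With the replicate number as a block the counts were 1 in EDNRA/IGFBP7 cells, 63 in fibroblasts, 0 in luminal and endothelial cells and 7 in IDO1/IGFBP6 cells, and GSN in fibroblasts turned to 0.017; the numbers do not pair the ewes. Crossed pairing, added after the data were seen, gave 2 and 0 calls in EDNRA/IGFBP7 and endothelial cells.

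Direction also turned for other values, none of them past the threshold. For CNN1 in EDNRA/IGFBP7 cells, LL against LH was 0.27 in the CNN1-TPM1 clusters and 0.13 outside them, a split added after the data were seen. In fibroblasts CNN1 was -0.11 with DESeq2 and -0.054 with clusters, GSN 0.0011 with clusters and 0.027 with no filter, and TPM1 0.0029 with stricter rules. Leaving out each ewe gave -0.87 to -0.31 for TPM1 and 0.95 to 2.66 for FHL1 in EDNRA/IGFBP7 cells; in fibroblasts -0.995 to 0.46 for CNN1, -0.70 to 0.14 for TPM1, -0.16 to 0.44 for FHL1 and -0.31 to 0.38 for GSN; in luminal cells -0.36 to 2.15 for CNN1, -0.93 to 1.46 for FHL1 and -0.47 to 1.13 for GSN; and in endothelial cells -1.06 to 0.19 for FHL1 and -0.38 to 1.11 for GSN. For the interaction, CNN1 ranged over -7.04 to 0.60 against endothelial, -0.68 to 0.87 against fibroblasts and -2.22 to 0.068 against luminal cells, and GSN over -0.49 to 0.87, -0.038 to 0.94 and -0.31 to 0.85. The causes were not tested.

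Thinning to 1500 UMIs moved the share of cells with a UMI: for CNN1 to 9.30% in EDNRA/IGFBP7 cells, 0.369% in fibroblasts and 0.357% in luminal cells; for TPM1 to 72.4%, 29.0%, 26.7% and, in endothelial cells, 22.1%; for FHL1 to 9.72% in fibroblasts, 0.376% in luminal and 3.67% in endothelial cells; for GSN to 68.1%, 99.4%, 40.3% and 40.6% in the same order. Looser rules gave 73.2% for TPM1 in EDNRA/IGFBP7 cells and, for GSN, 99.5% in fibroblasts, 74.6% in luminal and 49.4% in endothelial cells; stricter rules gave 87.7% for GSN in EDNRA/IGFBP7 cells. Looser rules gave no fit for fibroblasts, since LH replicate 2 then held 15 cells.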
